A study of Mus musculus with 2 samples.

Results

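The 10 genes described here encode the constant parts of mouse antibodies and the chain that joins them, namely 7 heavy-chain constant genes (Ighm, Ighd, Ighg1, Ighg2b, Ighg2c, Ighg3 and Igha), 2 light-chain constant genes (Igkc and Iglc2) and Jchain. They were taken by symbol from a fixed list, and all 10 were present among the 32285 genes of both count matrices. The matrices describe CD45+ DAPI- leukocytes sorted from B16-F0 tumours, a transplanted mouse melanoma line, in 1 library of genotype KO and 1 library of genotype WT. Age, strain, number of animals and the altered gene are not given in the sources used here, so the KO label could not be checked against a gene. The labels call the cells tumour-infiltrating Treg cells, whereas the sort described keeps every living CD45+ leukocyte, B and plasma cells among them. With 1 library per genotype no test between genotypes was possible, intervals in square brackets are exact 95% intervals for counting error only, and no difference has a replicate check.

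A B cell first makes IgM and IgD from the same rearranged variable region, whose transcript is spliced to Ighm or to Ighd. Class switching removes the DNA between and places Ighg1, Ighg2b, Ighg2c, Ighg3 or Igha behind that variable region, and plasma cells then secrete the encoded antibody in bulk. Kappa (Igkc) and lambda (Iglc1, Iglc2, Iglc3) light chains pair with the heavy chain, and the J chain links IgA into dimers and IgM into pentamers.

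In GRCm38, the assembly also called mm10, the 7 heavy-chain genes lie on the minus strand of chromosome 12, from Igha (chr12:113254830-113260236) at the low end to Ighm (chr12:113418558-113422730) at the high end. Igkc lies at chr6:70726435-70726966 on the plus strand, Iglc2 at chr16:19198396-19200351 on the minus strand and Jchain at chr5:88519809-88527891 on the minus strand. All 10 gene identifiers in the matrices matched the GENCODE annotation. The coding ends of 4 secreted heavy chains are shown because they carry the difference between the isotypes that take up J chain and those that do not. Each run is the last 80 coding bases, 5′ to 3′, stop codon included, and capitals mark the bases that only the secreted transcript codes for, with the stop.
Ighm (chr12:113420867-113420946, minus strand): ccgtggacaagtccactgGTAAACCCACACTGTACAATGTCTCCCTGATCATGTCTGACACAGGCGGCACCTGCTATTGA
Igha (chr12:113258768-113258847, minus strand): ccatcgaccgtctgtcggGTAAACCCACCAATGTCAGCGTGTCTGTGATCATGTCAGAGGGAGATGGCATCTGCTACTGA
Ighg2b (chr12:113306389-113306468, minus strand): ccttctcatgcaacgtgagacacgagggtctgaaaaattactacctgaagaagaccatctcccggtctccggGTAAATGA
Ighg2c (chr12:113287389-113287468, minus strand): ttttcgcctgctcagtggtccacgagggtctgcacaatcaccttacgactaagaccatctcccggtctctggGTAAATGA
The secreted-only stretch held 59 coding bases before the stop in Ighm and in Igha and 5 in Ighg2b and in Ighg2c. In Ighm and Igha the codon before the last was TGC, for cysteine, the residue through which the tailpiece binds J chain. In Ighg2b and Ighg2c it was GGT, for glycine. The deposited counts are per gene, so membrane and secreted transcripts of a heavy chain were counted together.

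The libraries held 112544655 UMIs (unique molecular identifiers, 1 per captured transcript) in KO and 98438084 in WT. Cells were kept at 500 or more genes, 1000 or more UMIs and at most 10% mitochondrial UMIs, which left 11131 KO and 11153 WT cells with medians of 6360 and 5191 UMIs. The 2 libraries shared 42 barcodes, 41 of them among kept cells. The 10 genes supplied 337791 UMIs (0.300% of the library) in KO and 303093 (0.308%) in WT. Classes were gated on markers that include no immunoglobulin gene and no Jchain. B-like cells numbered 446 in KO (4.01% of cells [3.65, 4.39]) and 3845 in WT (34.5% [33.6, 35.4]), with similar medians of 3486 and 3397 UMIs per cell. Plasma-like cells numbered 26 in KO and 8 in WT, and 13.7% of KO and 11.4% of WT cells met no gate.

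The near-equal library shares of antibody UMIs came from different cells. In KO, plasma-like cells held 76.0% of the library's Igkc UMIs and B-like cells 7.27%, while in WT plasma-like cells held 28.0% and B-like cells 64.7%. Ighd, which marks unswitched B cells, had 89.8% of its KO UMIs and 93.9% of its WT UMIs in B-like cells. Ighm spread further, with 35.8% of its KO UMIs and 75.8% of its WT UMIs in B-like cells and 27.7% and 8.26% in T-like cells. Of Jchain UMIs, 80.9% in KO and 83.6% in WT fell in plasma-like cells.

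**Figure D1:**
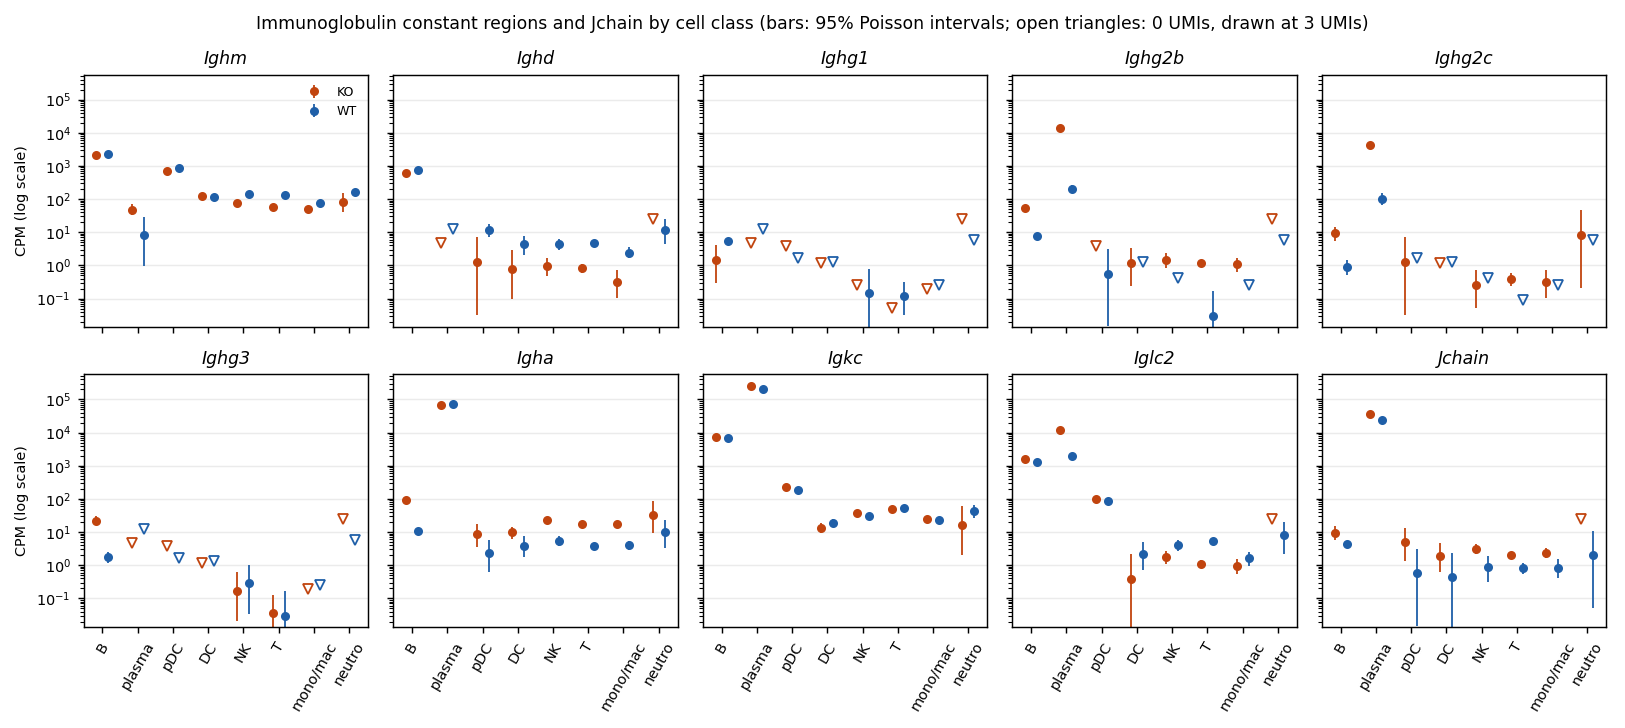
CPM of each gene (UMIs scaled to 1000000 per class, log scale) in 8 marker-gated classes, KO left of WT in each pair; bars are 95% Poisson intervals and open triangles mark a count of 0, drawn at 3 UMIs. Ighd is highest in B-like cells, Igha, Igkc and Jchain in plasma-like cells, and Ighm is also high in pDC-like cells; in T-like cells Igha was 17.9 CPM in KO and 3.86 in WT.

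The first comparison asked which heavy and light chains the B-like cells transcribed in each genotype. Levels are UMIs of the gene scaled to 1000000 UMIs of the class (CPM), and a gene was counted as higher or lower in KO where the ratio reached 1.5-fold and its interval left out 1. The interval covers counting error only, so passing the rule is not a test between genotypes. Of the 10 genes, 5 were higher in KO and 1 was lower, where 5.6% of the 11580 genes measured in B-like cells passed in either direction, 2.04% higher and 3.56% lower. The median log2 ratio was 0.73 over the 10 genes and -0.04 over all measured genes. All 5 higher genes were heavy chains of switched isotypes or Jchain, and the chains that unswitched B cells carry differed by less than 1.5-fold.

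Ighm, the IgM heavy chain, was at 2082.5 CPM in KO and 2239.6 CPM in WT B-like cells, a log2 ratio of -0.10 [-0.15, -0.06]. Ighd, the IgD heavy chain of mature naive cells, was at 609 CPM in KO and 769 CPM in WT (log2 -0.34 [-0.42, -0.25]). Per cell the spread was wide. The tenth percentile of Ighm was 4.20 UMIs per 10000 in KO and 9.57 in WT, while the ninetieth percentiles were 47.6 and 46.1, so the libraries differed more at the low end of the range than at the high end. Ighd medians were 6.35 per 10000 in KO cells and 8.22 in WT cells.

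The switched heavy chains were rare in both libraries and stood higher in KO. Ighg2b had 112 UMIs in KO (54.1 CPM) and 138 in WT (7.87 CPM), a log2 ratio of 2.78 [2.41, 3.15]. Igha, the IgA heavy chain, had 192 UMIs in KO (92.7 CPM) and 188 in WT (10.7 CPM), a log2 ratio of 3.11 [2.81, 3.41]. Ighg2c had 19 UMIs in KO and 16 in WT (log2 3.33 [2.29, 4.39]). They lay in 11 KO cells, at most 4 in 1 cell, and in 4 WT cells, at most 8 in 1 cell. Of these UMIs, 10 in KO and 5 in WT lay outside the cells led by a switched chain, described below. Ighg3 had 46 UMIs in KO and 31 in WT (log2 3.65 [2.96, 4.36]), but 1 KO cell held 63.0% of the KO count, and without the top cell of each library the log2 ratio was 2.42 [1.45, 3.35] and with a stricter cell filter 1.82 [0.44, 3.06]. Ighg1 went the other way, with 3 UMIs in KO, all in 1 cell, and 98 in WT, 42 of them in 1 cell (log2 -1.95 [-4.25, -0.36]). By cells it was not lower in KO, with a UMI in 1 of 446 KO cells (0.224%) and 7 of 3845 WT cells (0.182%), so the ratio rests on UMIs per cell in a few WT cells. Every cell thinned to 1500 UMIs left Ighg1 at 1 UMI in KO and 6 in WT, too few for a direction, and 3 of the 10 genes then passed the size rule.

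Jchain in B-like cells was 20 UMIs in KO (9.66 CPM) and 75 in WT (4.28 CPM), a log2 ratio of 1.17 [0.38, 1.90]. Without the top cell of each library it was 0.92 [-0.12, 1.84], and without the cells of highest doublet score 0.87 [-0.05, 1.69], so the Jchain call rested on few cells. Ighe, the IgE heavy chain and not among the 10, had 0 UMIs in B-like cells of either library, which allows up to 1.45 CPM in KO and 0.171 CPM in WT.

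Single cells showed where these UMIs sat. A heavy chain was called leading in a cell when it had at least 3 UMIs and more than any other heavy chain. A switched chain led in 22 of 405 KO B-like cells, 5.43% [3.44, 8.11], and in 18 of 3611 WT B-like cells, 0.498% [0.296, 0.787], a log2 ratio of 3.45 [2.48, 4.43]. In KO, Ighg2b led in 11 cells, Igha in 8, Ighg3 in 2, Ighg1 in 1 and Ighg2c in 0, although the Ighg2c CPM was higher in KO. In WT, Ighg2b led in 8 cells, Ighg1 in 4, Igha in 3, Ighg2c in 2 and Ighg3 in 1. Ighg2b was therefore the most frequent switched chain in both libraries, and Igha took the next place in KO and Ighg1 in WT, on counts too small to order further. The same measure on cells thinned to 1500 UMIs was 2.42% in KO and 0.259% in WT.

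**Figure D2:**
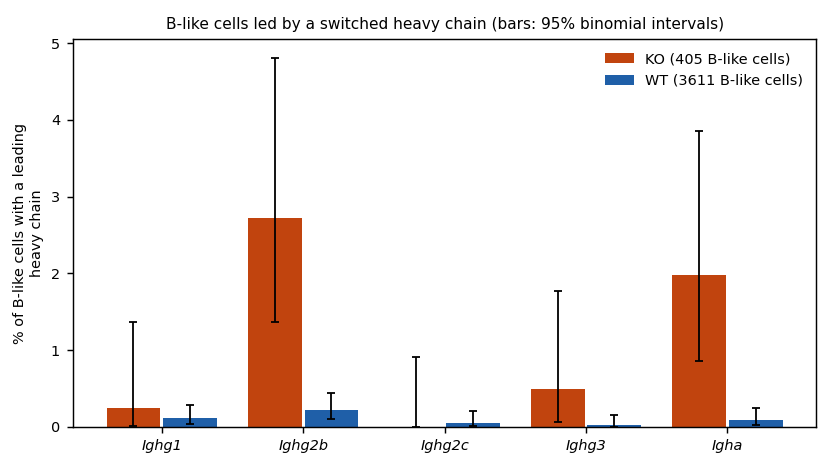
Percent of B-like cells with a leading heavy chain (405 KO, 3611 WT) that were led by each switched isotype, KO left of WT; bars are the share and lines its 95% binomial interval. The Ighg2b and Igha intervals of KO lie above those of WT, and those of Ighg1, Ighg2c and Ighg3 overlap.

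A cell counts as led by a switched chain only where that chain outnumbers Ighm and Ighd, so low counts of both in such cells are set by the definition. In the 22 KO cells, 12 Ighm and 0 Ighd UMIs were counted in all, and in the 18 WT cells 17 Ighm and 2 Ighd UMIs. The 11 Ighg2b-led KO cells held 4 to 18 Ighg2b UMIs (median 8), and the 8 Ighg2b-led WT cells held 4 to 49 (median 11). The 8 Igha-led KO cells held 5 to 32 Igha UMIs (median 10.5), and the 3 Igha-led WT cells held 12, 13 and 26. A check of the background came from T-like cells, which should lack Igha: their highest count in 1 cell was 6 in KO and 2 in WT, and 31 of 405 KO T-like cells with a leading heavy chain were led by Igha. Of the 8 Igha-led KO B-like cells, 2 with 5 Igha UMIs each lay within that range and the other 6 lay above it. The highest Ighg2b count in a T-like cell was 1 in either library. The 8 plasma-cell markers of the gate ranged in B-like cells from Tnfrsf17, with a UMI in 0 of 446 KO and 0 of 3845 WT cells, to Txndc5, with a UMI in 26.5% of KO and 20.9% of WT cells. Between them lay Sdc1 in 2.24% of KO and 1.43% of WT cells and Xbp1 in 10.8% of KO and 10.6% of WT cells. Cd3e, of T cells, was detected in 6.28% of KO and 5.70% of WT B-like cells. A B-like cell needed 2 more B markers than plasma or T-cell markers, so the gate itself limits these shares.

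B-like cells without any UMI of the unswitched chains were also more frequent in KO. Neither Ighm nor Ighd had a UMI in 24 of 446 KO B-like cells, 5.38% [3.48, 7.90], and in 13 of 3845 WT B-like cells, 0.338% [0.180, 0.577]. A switched chain led 19 of those 24 KO cells and 11 of those 13 WT cells. After thinning to 1500 UMIs the shares were 8.11% [5.74, 11.0] in KO and 2.69% [2.20, 3.25] in WT. Leaving out the switched B-like cells, which selects cells partly by their Ighm and Ighd counts, brought Ighm to 2326 CPM in KO and 2261 CPM in WT, a log2 ratio of 0.04 [-0.00480, 0.0864], and Ighd to 682 and 776 CPM, a log2 ratio of -0.19 [-0.27, -0.10].

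Outside the switched cells Igha was found in no larger a share of B-like cells than of T-like cells in either library, although its CPM was higher in B-like cells. The 424 other KO B-like cells held 71 Igha UMIs (38.4 CPM), with a UMI in 11.8% of cells, against 17.9 CPM and a UMI in 15.2% of KO T-like cells. The 3827 other WT B-like cells held 126 Igha UMIs (7.26 CPM), with a UMI in 3.21% of cells, against 3.86 CPM and a UMI in 3.52% of WT T-like cells. T-like cells were deeper, with medians of 5951 UMIs in KO and 6167 in WT, and since share and CPM run opposite ways no order between the classes is read from them. Ighg3 differed, with a UMI in 2.83% of the other KO B-like cells and 0.470% of the other WT B-like cells, against 0.0370% and 0.0284% of T-like cells.

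Light chains moved little. Igkc, the kappa constant region, was at 7588 CPM in KO and 6700 CPM in WT B-like cells, a log2 ratio of 0.18 [0.16, 0.20]. Iglc2, the constant region of lambda 2, was at 1563 CPM in KO and 1284 CPM in WT (log2 0.28 [0.23, 0.34]). Lambda UMIs (Iglc1, Iglc2 and Iglc3 together) outnumbered Igkc in 51 of 444 KO B-like cells, 11.5% [8.67, 14.8], and in 351 of 3844 WT B-like cells, 9.13% [8.24, 10.1], intervals that overlap.

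Iglc2 counts need their neighbour beside them, because Iglc2 and Iglc3 are near-identical copies whose reads a counter may split. The last 300 coding bases of both are given 5′ to 3′ with the stop, and capitals mark the bases at which they differ.
Iglc2 (chr16:19198536-19198835, minus strand): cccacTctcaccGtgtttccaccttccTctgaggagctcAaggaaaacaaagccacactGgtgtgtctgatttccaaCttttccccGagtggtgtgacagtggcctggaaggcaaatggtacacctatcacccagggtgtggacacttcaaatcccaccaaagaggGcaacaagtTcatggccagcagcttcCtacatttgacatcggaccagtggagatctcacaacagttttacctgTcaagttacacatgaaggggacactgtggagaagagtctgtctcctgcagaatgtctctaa
Iglc3 (chr16:19065365-19065664, minus strand): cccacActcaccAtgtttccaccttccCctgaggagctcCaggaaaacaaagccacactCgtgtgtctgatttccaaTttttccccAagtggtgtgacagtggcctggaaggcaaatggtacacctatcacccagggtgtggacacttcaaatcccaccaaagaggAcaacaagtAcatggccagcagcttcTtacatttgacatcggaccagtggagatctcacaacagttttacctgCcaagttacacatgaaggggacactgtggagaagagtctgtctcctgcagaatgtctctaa
Over these 300 bases the copies differed at 11, an identity of 96.3%, with a longest identical stretch of 79 bases, and their 3′ untranslated parts aligned at 90% identity. B-like cells had 1.91 [1.80, 2.02] Iglc2 UMIs per Iglc3 UMI in KO and 1.63 [1.60, 1.67] in WT. Plasmacytoid dendritic (pDC-like) cells had 0.148 [0.115, 0.188] in KO and 0.145 [0.122, 0.172] in WT. The counting therefore kept the copies apart to the extent that their ratio differed between classes, and the share of UMIs placed on the wrong copy was not tested. Ighg2b and Ighg2c have 3′ untranslated parts that aligned at 91.3% identity and coding parts at 85.9%. They were kept apart in 1 KO plasma-like cell with 6414 Ighg2b and 0 Ighg2c UMIs and in another with 0 and 984. A further KO cell held 331 Ighg2b and 165 Ighg2c UMIs, and misplaced UMIs were not tested here either.

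The second comparison asked which isotypes the plasma-like cells made. Igha led in most of them in both libraries, and IgG-led plasma-like cells were seen in the KO library. A leading heavy chain was present in 23 of 26 KO and 7 of 8 WT plasma-like cells. Igha led in 18 of the 23 KO cells, 78.3% [56.3, 92.5], and in 7 of the 7 WT cells, 100% [59.0, 100], so the intervals overlap. Of the other KO cells, 3 were led by Ighg2b and 2 by Ighg2c. No cell was led by Ighm, Ighd, Ighg1 or Ighg3, and Ighd, Ighg1 and Ighg3 had 0 UMIs in the plasma-like cells of both libraries, which allows up to 4.68 CPM in KO and 12.3 CPM in WT.

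The remaining 3 KO and 1 WT gated cells did not carry antibody transcripts. The KO cells held 0, 0 and 2 UMIs of the 10 genes at totals of 8054, 10151 and 86412 UMIs, and the WT cell held 1 at 81568 UMIs. They passed the gate on plasma-cell factors such as Xbp1, a driver of the secretory programme, and the immunoglobulin counts do not bear out that name for them. Ms4a1, the CD20 of B cells, had 0 UMIs in all 26 KO and 8 WT gated cells, while Cd79a, the signalling partner of the B-cell receptor, was detected in 23 of 26 KO and 7 of 8 WT gated cells.

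Antibody genes took a large part of these cells' RNA. All immunoglobulin genes with Jchain made up a median of 42.2% of UMIs per Igha-led KO cell (lowest 28.3%, highest 71.7%) and 47.8% per Igha-led WT cell (lowest 23.0%, highest 61.0%). Igha had 1263 to 3694 UMIs per Igha-led KO cell (median 2293) and 1172 to 4697 per WT cell (median 2227). Igkc had 3049 to 12606 UMIs in the same KO cells (median 7559) and 3243 to 11633 in the WT cells (median 7528). The 2 libraries overlapped over nearly the whole of each range.

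Jchain ranged from 295 to 1592 UMIs in the 18 Igha-led KO cells (median 1174.5), and from 454 to 1673 in the 7 Igha-led WT cells (median 584). As a share of the cell's UMIs the medians were 4.87% in KO and 2.94% in WT, with ranges of 1.77% to 6.96% and 2.16% to 5.58% that overlap. Jchain was also present in the IgG-led KO cells, whose heavy-chain ends lack the cysteine codon shown above. The Ighg2b-led cells held 432, 715 and 828 Jchain UMIs and the Ighg2c-led cells 334 and 460, all above the lowest Igha-led cell.

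**Figure D3:**
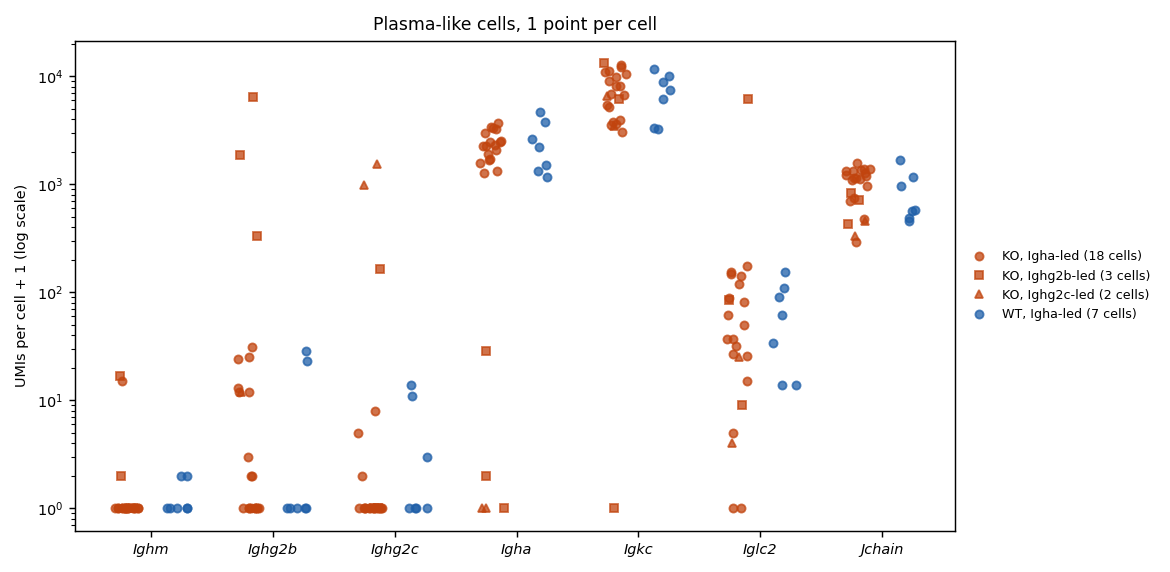
UMIs per cell plus 1 (log scale) of 7 genes in the 23 KO and 7 WT plasma-like cells with a leading heavy chain, 1 point per cell, KO left of WT, with the symbol giving the leading chain. Igha-led cells of both libraries overlap for Igha, Igkc and Jchain, and the single KO cell with 0 Igkc UMIs has 6218 Iglc2 UMIs.

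Summed over the class, 4 of the 7 genes with at least 20 UMIs were higher in KO and 0 lower, where 22.4% of 3609 genes passed in plasma-like cells, 6.93% higher and 15.5% lower. The median of all measured genes was -0.13 on the log2 scale here. Ighg2b had 8757 UMIs in KO and 50 in WT (log2 6.06 [5.66, 6.49]) and Ighg2c 2710 in KO and 25 in WT (log2 5.37). These KO sums were found mostly in the 5 IgG-led cells, with 6414 Ighg2b UMIs in 1 cell and 1549 Ighg2c UMIs in another. Iglc2 had 7524 UMIs in KO and 472 in WT (log2 2.60 [2.47, 2.74]), and 1 KO cell held 6218 of them. That cell held 0 Igkc UMIs, 331 Ighg2b UMIs and 165 Ighg2c UMIs. Ighm had 31 UMIs in KO, in 3 cells with 16 of them in 1, and 2 in WT. Igha was at 66348 CPM in KO and 70764 CPM in WT (log2 -0.09 [-0.12, -0.07]). Jchain was at 35091 CPM in KO and 24136 CPM in WT (log2 0.54 [0.50, 0.58]) and did not pass the 1.5-fold rule. The class sums include the 3 KO and 1 WT gated cells with no leading heavy chain. The deepest of them held 86412 of 641254 class UMIs in KO and 81568 of 244617 in WT, which lowers CPM more in WT. Ratios without these cells were not computed, so neither gene is read as level or different.

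The variable genes gave a view of relatedness that the constant genes cannot. The Ighv and Igkv gene with most UMIs was taken in 22 of the 23 KO and in all 7 WT cells, the other KO cell having no Igkv UMI, and medians per cell were 18 Ighv UMIs in KO and 20 in WT. The 22 KO cells showed 19 distinct pairs, with 3 cells in the largest, and the 7 WT cells showed 6, with 2 cells in the largest. Ighv1-81 with Igkv1-110 was the pair of 3 cells in KO, of which 2 were led by Igha and 1 by Ighg2b, and the same pair occurred in 1 Igha-led WT cell. Pairs were read from the gene names alone, and whether cells of 1 pair share a rearrangement was not tested.

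Some cells with antibody transcripts at plasma-cell level fell outside every gate. With 100 or more Igkc UMIs, 6 unassigned KO cells and 1 unassigned WT cell were each led by Igha. The 6 KO cells held 2253 to 14136 Igkc UMIs (14.6% of the library's Igkc), with medians of 6 plasma, 3.5 T-cell and 3.5 B-cell markers. The WT cell held 4944 Igkc UMIs (2.72%) at 101786 UMIs in all, with 7 plasma and 8 T-cell markers. With these cells added, chosen after the values were seen, Igha led in 82.8% of 29 KO cells and in 100% of 8 WT cells.

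The third comparison asked how much antibody RNA was counted in classes other than B-like and plasma-like cells. Igha stood higher in KO, and Ighd and Ighm lower, in T-like and NK-like cells. In T-like cells 4 of the 8 genes with at least 20 UMIs were higher in KO and 3 lower, where 8.93% of 13935 genes passed, 4.0% higher and 4.93% lower. In NK-like cells 2 of 6 were higher and 3 lower (4.6% of 11224 genes, 2.98% higher and 1.62% lower), and in monocyte and macrophage-like cells 2 of 6 were higher and 1 lower (7.19% of 11733 genes, 2.89% higher and 4.3% lower). Dendritic (DC-like) cells had 1 of 3 higher and 0 lower (6.83% of 9042 genes, 5.37% higher and 1.46% lower). pDC-like cells had 0 of 4 higher and 1 lower (5.45% of 7945 genes, 3.07% higher and 2.38% lower).

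Igha was at 17.9 CPM in KO and 3.86 CPM in WT T-like cells, a log2 ratio of 2.21 [1.94, 2.49]. NK-like cells had 22.9 CPM in KO and 5.42 CPM in WT (log2 2.08 [1.58, 2.61]). Monocyte and macrophage-like cells had 17.7 CPM in KO and 4.02 CPM in WT (log2 2.14 [1.69, 2.61]). Across these 3 classes Igha thus lay between 17.7 and 22.9 CPM in KO and between 3.86 and 5.42 CPM in WT. Igha UMIs were spread over cells, with a UMI in 15.2% of KO and 3.52% of WT T-like cells and at most 6 and 2 in 1 cell. Thinned to 1500 UMIs, 3.74% [3.25, 4.28] of KO and 0.655% [0.416, 0.981] of WT T-like cells had an Igha UMI.

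Ighd showed the opposite difference. It was at 0.815 CPM in KO and 4.76 CPM in WT T-like cells, a log2 ratio of -2.55 [-3.05, -2.06]. NK-like cells had 0.938 CPM in KO and 4.28 CPM in WT (log2 -2.19 [-3.34, -1.15]), and monocyte and macrophage-like cells 0.315 CPM in KO and 2.43 CPM in WT (log2 -2.95 [-4.67, -1.56]). Cd79a, which B cells express and the 10 do not include, was at 0.407 CPM in KO and 6.45 CPM in WT T-like cells. The share of B-like cells was lower in KO and the number of plasma-like cells higher, as given above. Whether these cell numbers account for the counts in other classes was not tested.

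Igkc, which both B-like and plasma-like cells make, was at 48.5 CPM in KO and 51.8 CPM in WT T-like cells (log2 -0.10 [-0.18, -0.01]). That value averages over sets that differ. The following split was chosen after the values were seen. T-like cells with a Cd4 UMI and none of Cd8a or Cd8b1 had 40.1 CPM in KO and 70.9 CPM in WT. The log2 ratio was -0.82 [-1.02, -0.63], past 1.5-fold. By cells Igkc was not lower in KO. In thinned cells of this set, 6.34% [5.06, 7.82] in KO and 5.36% [3.84, 7.26] in WT had an Igkc UMI. Among all T-like cells, unthinned, the shares were 26.0% in KO and 21.3% in WT. The ratio in this set is therefore not read as fewer KO cells with Igkc, and how the Igkc UMIs spread over the WT cells of this set was not tested. Cells with a Cd8a or Cd8b1 UMI and none of Cd4 had 52.8 CPM in KO and 50.9 CPM in WT (log2 0.05 [-0.07, 0.17]), and cells with none of these had 44.1 CPM in KO and 40.4 CPM in WT (log2 0.13 [-0.12, 0.37]). In NK-like cells it was 37.8 CPM in KO and 29.8 CPM in WT (log2 0.34 [0.10, 0.59]). Iglc2 in T-like cells was 1.08 CPM in KO and 5.24 CPM in WT (log2 -2.28 [-2.72, -1.85]). By cells the difference was smaller, with an Iglc2 UMI in 1.13% of KO and 2.73% of WT T-like cells. The highest count in 1 cell was 1 in KO and 27, of 174 UMIs, in WT. Jchain in T-like cells was 2.00 CPM in KO and 0.813 CPM in WT (log2 1.30 [0.68, 1.96]). Ighg2b had 66 UMIs in KO and 1 in WT T-like cells, and Ighg2c had 22 in KO and 0 in WT. Against a floor of 3 UMIs in the WT sum Ighg2c was 4.31-fold higher, and the exact lower bound of its log2 ratio was 1.69. Ighg1 had 0 UMIs in KO and 4 in WT T-like cells. The 4 genes higher in KO T-like cells, Ighg2b, Ighg2c, Igha and Jchain, each had between 74.8% and 97.2% of their KO UMIs in plasma-like cells.

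**Figure D4:**
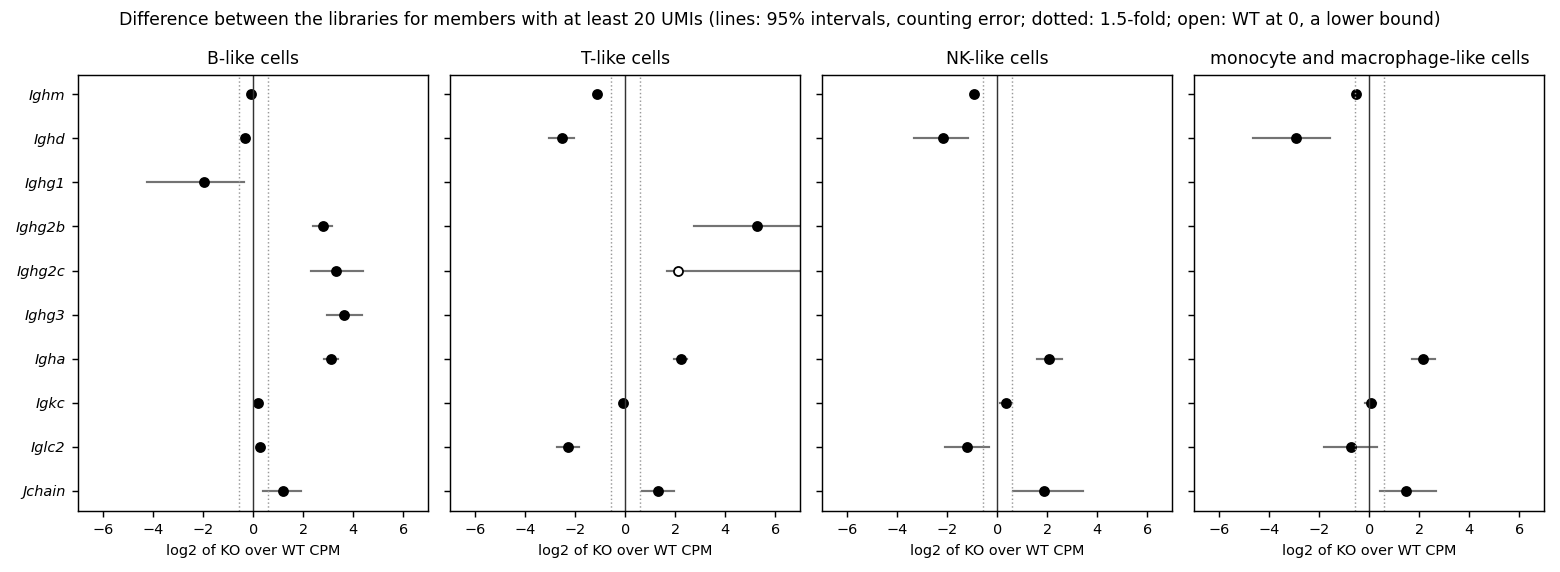
Log2 of KO over WT CPM for genes with at least 20 UMIs, in B-like, T-like, NK-like and monocyte and macrophage-like cells. Lines are 95% intervals, dotted lines 1.5-fold and the open point a ratio with the WT count of 0 set to 3 UMIs. Ighd lies within the dotted lines in B-like cells (log2 -0.34) and left of them in T-like cells (log2 -2.55), while Igha lies right of them in all 4 classes.

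Ighm did not keep a fixed ratio to the other chains. T-like cells had 59.0 CPM Ighm in KO and 128.8 CPM in WT (log2 -1.13 [-1.19, -1.06]), and NK-like cells 73.8 CPM in KO and 141 CPM in WT (log2 -0.93 [-1.06, -0.80]). In monocyte and macrophage-like cells it was 51.2 CPM in KO and 73.5 CPM in WT (log2 -0.52 [-0.66, -0.38]), and in DC-like cells 120.2 CPM in KO and 116.3 CPM in WT (log2 0.05 [-0.19, 0.29]). B-like cells had 0.274 [0.265, 0.284] Ighm UMIs per Igkc UMI in KO and 0.334 [0.330, 0.338] in WT. T-like cells had 1.22 [1.16, 1.28] in KO and 2.49 [2.35, 2.63] in WT, and NK-like cells 1.95 [1.74, 2.19] in KO and 4.71 [4.06, 5.50] in WT. In each library the ratio in T-like and NK-like cells was thus above that of B-like cells and of plasma-like cells, which had 1.89e-04 in KO and 3.93e-05 in WT.

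The Ighd to Igkc ratio, in contrast, stayed nearer that of B-like cells in WT. It was 0.115 [0.113, 0.117] in WT B-like cells and 0.0919 [0.0775, 0.108] in WT T-like cells, while in KO it was 0.0803 [0.0757, 0.0850] in B-like cells and 0.0168 [0.0123, 0.0225] in T-like cells. Igha per Igkc UMI was 0.368 [0.342, 0.396] in KO and 0.0744 [0.0617, 0.0891] in WT T-like cells, beside 0.259 [0.256, 0.262] in KO and 0.340 [0.335, 0.346] in WT plasma-like cells. Jchain per Igha UMI was 0.112 [0.0915, 0.136] in KO T-like cells, against 0.529 [0.520, 0.538] in KO plasma-like cells.

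**Figure D5:**
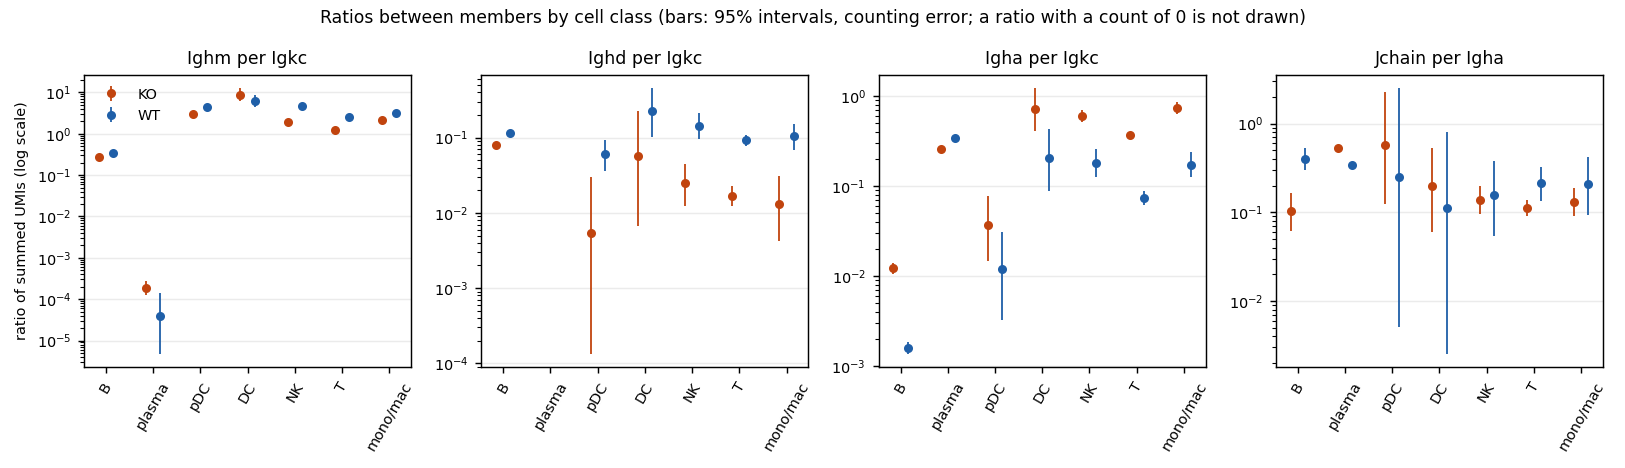
Ratios of summed UMIs between 4 pairs of genes (log scale) in 7 classes, KO left of WT; bars are 95% intervals for counting error, and pairs with a count of 0 are not drawn. Ighm per Igkc is 1.22 in KO and 2.49 in WT T-like cells, above the 0.274 and 0.334 of B-like cells.

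pDC-like cells stood apart from the other classes without B-cell function. Ighm had a UMI in 91 of 92 KO cells (98.9%) and 194 of 194 WT cells, at 725 CPM in KO and 862 CPM in WT (log2 -0.25 [-0.39, -0.11]). Plasmacytoid dendritic cells are known to transcribe parts of their heavy-chain locus. Ighd, spliced from the same precursor in B cells, was at 1.25 CPM in KO and 11.4 CPM in WT, with 1 and 20 UMIs, and Cd79a had 0 UMIs in KO and 16 in WT. Among cells with 3 or more light-chain UMIs, lambda led in 45 of 56 KO cells, 80.4% [67.6, 89.8], and in 107 of 119 WT cells, 89.9% [83.0, 94.7]. Iglc3 supplied most of it, at 661 CPM in KO and 599 CPM in WT, beside 97.8 and 87.0 CPM of Iglc2. Both genotypes thus showed an Ighm and Iglc3 pattern in pDC-like cells that differs from B-like cells, where Igkc led in 87.8% of KO and 89.98% of WT cells.

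Lists of genes around the antibody chains were described in B-like cells by the same rule. The lists were chosen with earlier results of these data known, so their counts are a description and not independent support. Of 8 memory B-cell genes 4 were higher in KO and 0 lower, with a median log2 ratio of 0.80, where 2.04% of all genes were higher and the median of all genes was -0.04. Zbtb32, a repressor of memory recall, was at 13.0 CPM in KO and 2.57 CPM in WT (log2 2.34 [1.60, 3.06]). Bhlhe41, a factor of memory and B-1a cells, was at 37.2 CPM in KO and 10.1 CPM in WT (log2 1.88 [1.48, 2.27]). Cxcr3, a chemokine receptor, was at 35.7 CPM in KO and 15.7 CPM in WT (log2 1.18 [0.79, 1.56]), and Zbtb20, a factor of memory and plasma cells, at 159 CPM in KO and 86.8 CPM in WT (log2 0.88 [0.70, 1.05]). The other 4, surface molecules used as memory markers, did not pass, with log2 ratios of 0.73 [-0.41, 1.73] for Cd80, 0.14 [-1.05, 1.15] for Nt5e, -0.13 [-0.62, 0.34] for Pdcd1lg2 and 0.28 [0.03, 0.52] for Cd44.

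Over all 11580 genes measured in B-like cells, 2.04% were higher in KO and 3.56% lower. For short lists a single call, or none, is therefore not read as a result about the list. Of 10 measured class-switching and germinal-centre genes 1 was higher, Fas, the death receptor, at 14.0 CPM in KO and 5.93 CPM in WT (log2 1.24 [0.59, 1.84]). Of 14 measured plasma-cell factors 1 was higher, Tent5c, a poly(A) polymerase of secreted-protein transcripts, at 14.0 CPM in KO and 6.50 CPM in WT (log2 1.11 [0.47, 1.71]). The plasma markers of the gate are on this list, and cells with many of them cannot be B-like. The gate thus limits the values of these markers in both libraries. None passed in either direction among 14 genes of the B-cell receptor complex, 8 of its inhibitors, 10 naive and follicular genes, 10 immunoglobulin receptors and 6 other immunoglobulin genes, by the size rule and with no test. In these, Cd79a, the signalling chain of the receptor, was at 2207 CPM in KO and 2169 CPM in WT and its partner Cd79b at 1134 CPM in KO and 1172 CPM in WT. Ptpn6, the inhibitory phosphatase, was at 211 CPM in KO and 165 CPM in WT (log2 0.36 [0.21, 0.50]), and Siglecg, an inhibitory lectin, at 193 CPM in KO and 176 CPM in WT (log2 0.14 [-0.02, 0.29]). Klf2, a factor of resting recirculating cells, was at 999.7 CPM in KO and 944 CPM in WT (log2 0.08 [0.02, 0.15]). Fcmr, the IgM receptor, was at 412 CPM in KO and 337 CPM in WT (log2 0.29 [0.18, 0.39]), whereas Fcer1g, the common chain of Fc receptors, was at 269 CPM in KO and 329 CPM in WT (log2 -0.29 [-0.42, -0.17]). Of the other light chains, Iglc1 was at 551 CPM in KO and 439.7 CPM in WT (log2 0.32 [0.23, 0.41]) and Iglc3 at 821 CPM in KO and 786 CPM in WT (log2 0.06 [-0.01, 0.14]).

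The genes whose levels ran most like those of 3 antibody genes were taken over 13 sums of a class in a library, each with at least 50 cells, which left out the plasma-like cells. For Ighd they included Cd79a (Pearson r 0.99), Pax5 (0.98), Scd1 (0.98) and Fcmr (0.97). For Igkc they were Blk (0.97), Gm30211 (0.97), Med13 (0.97), Srpk3 (0.97) and Chst3 (0.96). For Jchain they were Grpel2 (0.84), Egln2 (0.79), Trim34a (0.79), Bdp1 (0.75) and Med13 (0.75), lower values over sums that lack the class where Jchain is highest. The sums of a library share its depth, and the correlations are a description.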

How the data were processed

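The deposited values are raw UMI counts, 1 whole number per gene and barcode, from 10x Genomics 3' v3.1 libraries, per the file headers and the labels. The submitters' processing notes name Cell Ranger, STAR and mm10, and the headers give Cell Ranger 5.0.0. No source used here states the annotation release, and counts per gene do not separate membrane from secreted transcripts.

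From these counts, kept cells were gated on detected marker genes, none of them an immunoglobulin gene or Jchain. A class needed at least 3 markers and 2 more than any other class. Plasma-like cells needed at least 4 plasma markers, more than B markers, and 2 more than any class other than B. Doublets were left to this gate, because Scrublet in scanpy 1.11.5 called 0 KO and 355 WT cells, and an alternative removed the expected share of highest scores, 1015 KO and 1020 WT cells. UMIs were summed per class and library and divided by the class total (CPM). Ratios carry exact conditional binomial intervals, shares exact Clopper-Pearson intervals and levels Poisson intervals, all at 95%. A count of 0 was set to a floor of 3 UMIs per class sum for the point ratio, while its interval used the count itself. For shares across depths, cells were thinned to 1500 UMIs and shallower ones left out, 2 KO and 16 WT B-like and 29 KO and 10 WT T-like cells. The ratio rule was run on simulated class sums with Poisson error only. That simulation leaves out the spread between cells and between libraries, so it does not show how the rule behaves with either. 1 split of T-like cells, counted among the alternatives, and 1 gene of the likeness ranking are not reported here. All 10 genes are named. From each list up to 4 genes past the size rule are named, or the 2 with most UMIs. The 10 genes and the lists were chosen with earlier results of these data known. Sequences and coordinates are from GENCODE M21 on GRCm38, aligned with Biopython 1.88. Python 3.11.15, numpy 2.4.6, scipy 1.17.1 and pandas 2.3.3 were used.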

Additional observations from a re-analysis of the deposited data

How the results depend on the processing

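No paired analysis was possible because each genotype had 1 library, and no test was made at any setting. Of 415 values recomputed under alternatives, 362 stayed within the interval of the reported value or within 1.5 times a reported count and the others did not. In all 5 log2 ratios changed sign, 1 of them past the size rule as reported (Ighg1 in B-like cells). The count of genes past the size rule in B-like cells was 6 as reported, 5 or 6 under the other settings, and 3 in cells thinned to 1500 UMIs. Thinning also turned the log2 ratio of Ighg1 in B-like cells to 0.52, from 1 KO and 6 WT UMIs. In T-like cells the count was 8 with no minimum of UMIs and 7 with at least 20. It was 5 in thinned cells, where fewer UMIs enter. The log2 ratio of the switched share stayed between 3.20 and 3.62 under all 7 alternatives. Removing the highest doublet scores left 23 KO and 4 WT plasma-like cells with a leading heavy chain, and Igha led in 78.3% and 100% of them. Removing them also moved Igkc in T-like cells to a log2 ratio of 0.22 [0.12, 0.32], beside -0.10 as reported, and it was 0.05 and 0.13 in T-like cells with Cd8a or Cd8b1 and in those with neither these nor Cd4. Without the switched cells Ighm in B-like cells was at 0.04, beside -0.10. No setting can separate genotype from library, and few plasma-like cells and few UMIs of Ighg1, Ighg2c and Jchain in B-like cells limit what can be said of them.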

Other observations

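Neutrophil-like cells, 34 in KO and 159 in WT, were too few for a comparison of their own. Ighm had 10 UMIs there in KO and 83 in WT, and Igha 4 in KO and 5 in WT. Of the 2 genes with at least 20 UMIs in this class 0 were higher and 1 lower, where 23.3% of 3328 genes passed. The 12 KO and 18 WT B-like cells with 100 or more Igkc UMIs were led by Igha in 3 KO and 0 WT cells, and their highest Igkc counts were 489 in KO and 283 in WT, below the lowest plasma-like cell led by Igha.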
